A study of Mus musculus with 6 samples.

Results

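The mitochondrial genome of the mouse carries 7 genes for subunits of respiratory complex I, named mt-Nd1, mt-Nd2, mt-Nd3, mt-Nd4, mt-Nd4l, mt-Nd5 and mt-Nd6. They were picked by symbol, through the Ensembl identifiers of the deposited table and GENCODE M21, and all 7 were among its 12149 genes. The table describes messenger RNA of 6 single blastocysts at embryonic day 3.5, on the C57BL/6 background. In the Dep group, 3 embryos came from zygotes that had received small RNAs from the sperm of males made depressive by stress. In the Ctl group, 3 embryos came from zygotes that had received small RNAs from the sperm of normal males. Both injections used 2 ng/µl, so no embryo was left uninjected, and embryos were taken about 96 h later and lysed whole. Parents, donor males and injection days of single embryos are not given in the labels, so p-values measure the spread between these embryos.

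Complex I is the entry point of the respiratory chain: it takes electrons from NADH, hands them to ubiquinone and pumps protons across the inner mitochondrial membrane. The mitochondrially encoded subunits sit in the membrane arm, and nuclear genes supply the remaining subunits. Mitochondrial DNA is inherited from the oocyte and is transcribed as long RNAs from both strands. The RNAs are cut into single messengers, in most places at the tRNAs that lie between the genes, and most of these messengers receive a poly(A) tail. The SMART-Seq v4 kit used here starts reverse transcription on such tails.

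The genes begin with several different codons, which is a known feature of vertebrate mitochondrial DNA. The first 30 bases of each gene are shown to make this visible, from GENCODE M21 transcripts on GRCm38, 5′ to 3′ on the coding strand, with the first codon in capitals.
mt-Nd1: GTGttctttattaatatcctaacactcctc
mt-Nd2: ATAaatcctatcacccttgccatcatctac
mt-Nd3: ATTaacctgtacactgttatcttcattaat
mt-Nd4l: ATGccatctaccttcttcaacctcaccata
mt-Nd4: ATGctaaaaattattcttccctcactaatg
mt-Nd5: ATCaatattttcacaacctcaatcttatta
mt-Nd6: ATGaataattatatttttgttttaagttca
Only mt-Nd4l, mt-Nd4 and mt-Nd6 of the 7 start with ATG. mt-Nd6 also differs in base composition. Its coding strand holds 28.1% G and 5.97% C, while the other 6 hold 8.0% to 11.6% G and 22.1% to 29.97% C. mt-Nd6 is the only member annotated on the minus strand.

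In GRCm38 the members occupy chrM:2751-3707 (mt-Nd1), chrM:3914-4951 (mt-Nd2), chrM:9459-9806 (mt-Nd3), chrM:9877-10173 (mt-Nd4l), chrM:10167-11544 (mt-Nd4), chrM:11742-13565 (mt-Nd5) and chrM:13552-14070 (mt-Nd6). Each is a protein-coding gene of 1 exon, and the lengths run from 297 bases for mt-Nd4l to 1824 for mt-Nd5. The mt-Nd4l and mt-Nd4 genes overlap by 7 bases, and mt-Nd5 and mt-Nd6, on opposite strands, by 14. The kit does not mark strand, so reads over mt-Nd6 can come from either strand and its values are uncertain in that respect.

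Part of the mitochondrial genome also exists as a nuclear copy on chromosome 1, and that copy covers some members almost completely. Matches to any nuclear copy were measured as the share of 50-base windows of a gene that occur, on either strand, in any annotated transcript outside the mitochondrial genome. The share was 98.8% for mt-Nd4l, 98.0% for mt-Nd3, 62.2% for mt-Nd4, 8.19% for mt-Nd2 and 7.61% for mt-Nd5, and 0 for mt-Nd1 and mt-Nd6. The windows of mt-Nd2 were found in Gm13339 and those of mt-Nd5 in Gm11407 and Gm4076, not in the chromosome 1 pseudogenes named next. The unprocessed pseudogene Gm10222, at chr1:24612407-24612700 on the minus strand, is identical to the first 294 of the 297 bases of mt-Nd4l. The pseudogene Gm28438, at chr1:24612775-24613119, matches mt-Nd3 at 344 of 345 bases. Their 1 difference is T3C, counted from the first base of mt-Nd3. The pseudogene Gm28439 is identical to the first 876 of the 1378 bases of mt-Nd4. Both nearly complete cases are printed because a read within the identical stretches cannot be placed by its letters. The last 3 bases of mt-Nd3 and mt-Nd4l lie past the ends of Gm28438 and Gm10222 as annotated. For mt-Nd4l they fall in its 7-base overlap with mt-Nd4, which Gm28439 shares, so they cannot place a read either. For mt-Nd3 the bases of chromosome 1 past the annotated copy were not examined. For mt-Nd3 the first 120 bases are given, chrM:9459-9578, beside those of Gm28438, chr1:24613000-24613119 on the minus strand, with the 1 base that differs in capitals. For mt-Nd4l the whole gene is given, with no capitals since Gm10222 has the same letters up to base 294.
mt-Nd3: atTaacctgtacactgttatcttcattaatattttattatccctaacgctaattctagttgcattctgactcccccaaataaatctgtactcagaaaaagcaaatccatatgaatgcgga
Gm28438: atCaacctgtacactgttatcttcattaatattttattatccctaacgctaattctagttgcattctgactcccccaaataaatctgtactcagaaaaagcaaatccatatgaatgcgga
mt-Nd4l: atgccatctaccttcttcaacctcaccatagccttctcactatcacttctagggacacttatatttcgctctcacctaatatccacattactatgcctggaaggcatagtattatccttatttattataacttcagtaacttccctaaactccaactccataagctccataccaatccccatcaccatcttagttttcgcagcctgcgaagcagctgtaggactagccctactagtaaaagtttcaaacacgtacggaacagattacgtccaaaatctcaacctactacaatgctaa
How the authors' counting treated reads that fit several places is not given in the sources used here.

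Across the libraries, reads in listed genes numbered 16543356 to 21548220. Markers of the blastocyst were present, with all 7 of a trophectoderm list, all 5 of an epiblast list and all 5 of a primitive endoderm list in the table. Dep 1 stood outside the other 5 embryos in each. Its summed normalized counts were 101116 for trophectoderm, 5775 for epiblast and 3141 for primitive endoderm markers, against 40231 to 71466, 6030 to 10875 and 6183 to 9311 in the others. Of 7 cumulus and granulosa cell markers and 5 blood markers, 0 were among the listed genes, and of 5 sperm markers only Prm1 was, summing to 19.9 to 48.6 normalized counts in Dep and 4.17 to 24.9 in Ctl. The library of Dep 1 also had no read in 691 of the listed genes, while 5 to 106 genes were at 0 in each of the others. The part of these differences in the results was not tested. The 22 listed genes of the mitochondrial genome took 3.71%, 3.05% and 4.0% of reads in Dep 1, 2 and 3, and 7.02%, 3.85% and 7.04% in Ctl 1, 2 and 3.

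The 7 complex I genes were lower on average in Dep, but the groups overlapped for each of them. Together they took 1.97%, 1.37% and 1.86% of all reads in Dep 1, 2 and 3, and 3.71%, 1.81% and 3.46% in Ctl 1, 2 and 3. That is 1.74% ± 0.319 in Dep and 2.99% ± 1.03 in Ctl (SD, n = 3 each). Ctl 1 and Ctl 3 lay above every Dep embryo, while Ctl 2 lay between Dep 2 and Dep 3. These shares are relative to the reads of each library, so they do not measure the number of cells. In RNA of whole embryos, fewer mitochondria and less RNA in each cannot be told apart.

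mt-Nd1 forms part of the ubiquinone-binding end of the membrane arm and had the highest normalized count of the 7, in total and per length. It had 189612, 119438 and 121858 normalized counts in Dep 1, 2 and 3, and 316152, 138389 and 252292 in Ctl 1, 2 and 3. A normalized count is the number of reads divided by 1 size factor per library. Its log2 fold, Dep over Ctl, was -0.67 ± 0.46 (SE), with a 95% interval from -1.69 to 0.36. It was -0.01 under quantile normalization, which sets values by rank, so that fold reflects changes of rank only. Here and below, folds come from limma on log2(normalized count + 1), fitted over all genes.

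mt-Nd2, mt-Nd4 and mt-Nd5 encode the antiporter-like subunits, which form the proton-pumping part of the arm. mt-Nd2 had 53818, 21491 and 34649 normalized counts in Dep 1, 2 and 3, and 97060, 36724 and 88150 in Ctl 1, 2 and 3. This was the largest log2 fold of the members, at -0.99 ± 0.47 (SE; 95% interval -2.03 to 0.05). Ctl 2 lay inside the Dep range for mt-Nd2, and both other Ctl embryos lay well above it. mt-Nd4 had 64200, 34539 and 63006 normalized counts in Dep 1, 2 and 3, and 106510, 55034 and 109640 in Ctl 1, 2 and 3. mt-Nd5, the subunit at the far tip of the arm, had 77524, 62742 and 64908 in Dep 1, 2 and 3, and 165788, 77293 and 118737 in Ctl 1, 2 and 3. The mt-Nd5 groups overlapped by a narrow margin, since Ctl 2 was just under Dep 1. The log2 folds were -0.73 ± 0.41 for mt-Nd4 and -0.76 ± 0.39 for mt-Nd5 (SE).

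mt-Nd3, mt-Nd4l and mt-Nd6 encode small subunits near the joint between the membrane arm and the part that takes up NADH. mt-Nd6 had 26163, 10455 and 20238 normalized counts in Dep 1, 2 and 3, and 39140, 18417 and 37841 in Ctl 1, 2 and 3. Its log2 fold was -0.77 ± 0.42 (SE), close to those of mt-Nd4 and mt-Nd5. Since reads over mt-Nd6 can come from either strand, this is no comparison of the strands. mt-Nd3 had 516, 136 and 257 normalized counts in Dep 1, 2 and 3, and 721, 205 and 466 in Ctl 1, 2 and 3. Here Dep 1 lay above Ctl 3, so mt-Nd3 was the 1 member in which Ctl 1 and Ctl 3 did not both exceed every Dep embryo. mt-Nd4l had 78.9, 47.7 and 82.6 normalized counts in Dep 1, 2 and 3, and 218, 51.8 and 103 in Ctl 1, 2 and 3. Its high Ctl mean rests on Ctl 1. The log2 folds were -0.64 ± 0.60 for mt-Nd3 and -0.63 ± 0.73 for mt-Nd4l (SE), the widest errors of the 7.

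**Figure D1:**
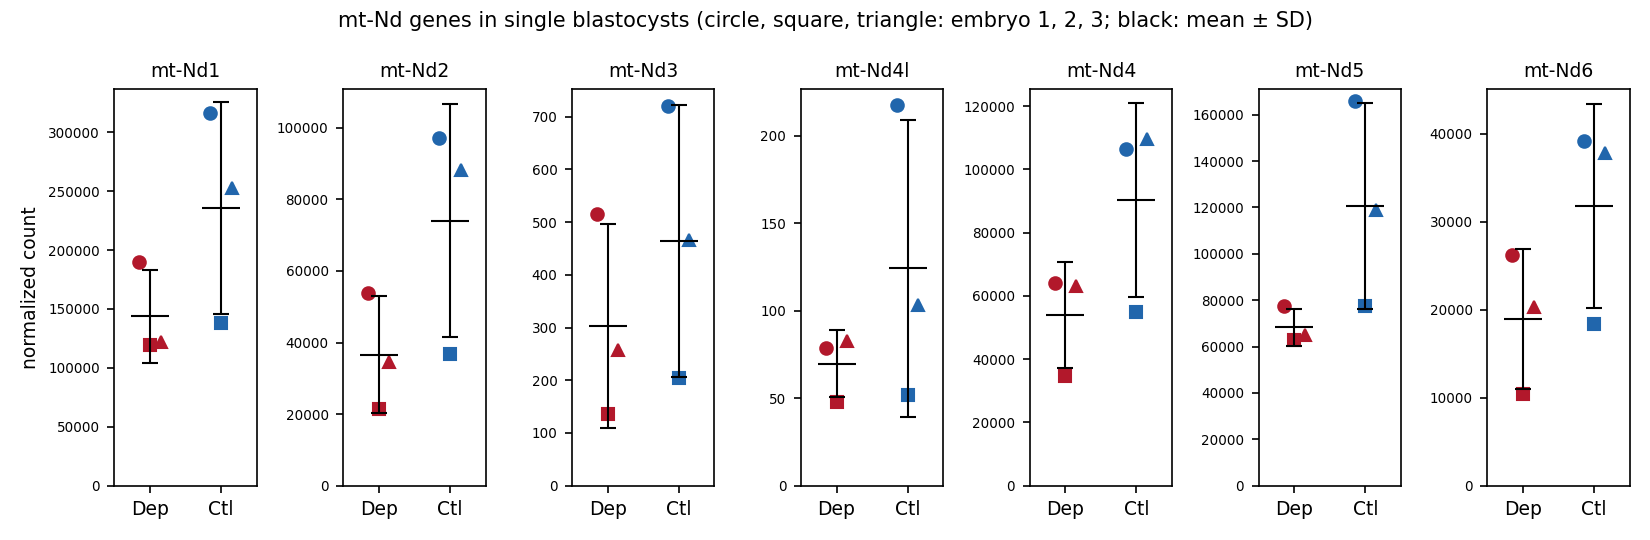
Normalized counts of each mt-Nd gene (vertical axes, each from 0) in single blastocysts of the Dep and Ctl groups, with black bars for mean ± SD over 3 embryos. In every panel the square of Ctl 2 sits within the range of the Dep embryos, and Dep 2 is the lowest of all 6.

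None of the 7 passed the test over all genes (limma, Benjamini-Hochberg adjusted p = 0.9997 for each). Their unadjusted limma p ranged from 0.0598 for mt-Nd2 to 0.406 for mt-Nd4l. Over the 12149 genes, 0 passed an adjusted p of 0.05, so the background of calls is 0%, and 225 had an unadjusted p under 0.05. The share of genes with an unadjusted p under 0.05 and a lower value in Dep was 1.02%, and 0 members were among them. With whole reads recovered from the table, edgeR gave 0 adjusted calls and 211 genes at an unadjusted p under 0.05. DESeq2 gave 279 such genes and 1 adjusted call, Ly6a (adjusted p = 0.0345), which is no member. At the unadjusted threshold, edgeR held 2 members and DESeq2 4. The authors' deposited table gives the members unadjusted p-values from 0.00921 for mt-Nd5 to 0.301 for mt-Nd3, and an adjusted p of 0.9999 for each. The deposited log2 folds differ from those of DESeq2 here by at most 4.26e-08, so both are 1 analysis and not 2 separate results. The groups were separate, with Dep lower, for 0 of the 7, against 3.8% of all genes.

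All 7 members had a negative log2 fold, against 51.8% of all genes. Their median was -0.73 on the log2 scale, beside -0.02 for all 12149 genes. The members are neighbours on 1 DNA molecule and varied together from embryo to embryo, so they are not 7 separate observations. Over the 6 embryos, the Pearson correlation of log2 values between pairs of members ranged from 0.81 (mt-Nd3 with mt-Nd5) to 0.98 (mt-Nd2 with mt-Nd6), and libraries share their scaling in all of these. Dep 2 was the lowest of the 6 embryos for all 7 members. Ctl 1 was the highest for 6, and Ctl 3 was for mt-Nd4.

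Embryos of the same number in Dep and Ctl deviated together weakly across all genes (r of 0.129 to 0.151), so they are also set side by side. In each of the 3 such pairs the Dep value was below the Ctl value for all 7 members. As the members vary together, these are 3 pairs and not 21 separate observations. No label pairs the embryos, and the match by number was taken up from these same data. The p-values that use it rest on that unstated pairing. Of all genes, 12.6% were lower in Dep in all 3 pairs. With the replicate number as a block in limma, the unadjusted p was 0.00197 for mt-Nd2, 0.00400 for mt-Nd6, 0.00704 for mt-Nd4, 0.0145 for mt-Nd5 and 0.0337 for mt-Nd1, and the smallest adjusted p of a member was 0.941. The fit with the block had 420 genes at the unadjusted threshold.

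With each embryo left out in turn, the log2 folds of all 7 members stayed below 0, while their size depended on the embryo. Without Ctl 2 the log2 folds ran from -1.43 for mt-Nd2 to -1.01 for mt-Nd1, with a median of -1.12. Without Dep 2 the median was -0.44, and mt-Nd3 had -0.17. Without Ctl 1 the median was -0.49, and mt-Nd4l had -0.11. Without Dep 1, the library with 691 genes at 0, the median was -0.89. No member passed the adjusted threshold in any of these fits, the smallest adjusted p being 0.838.

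**Figure D2:**
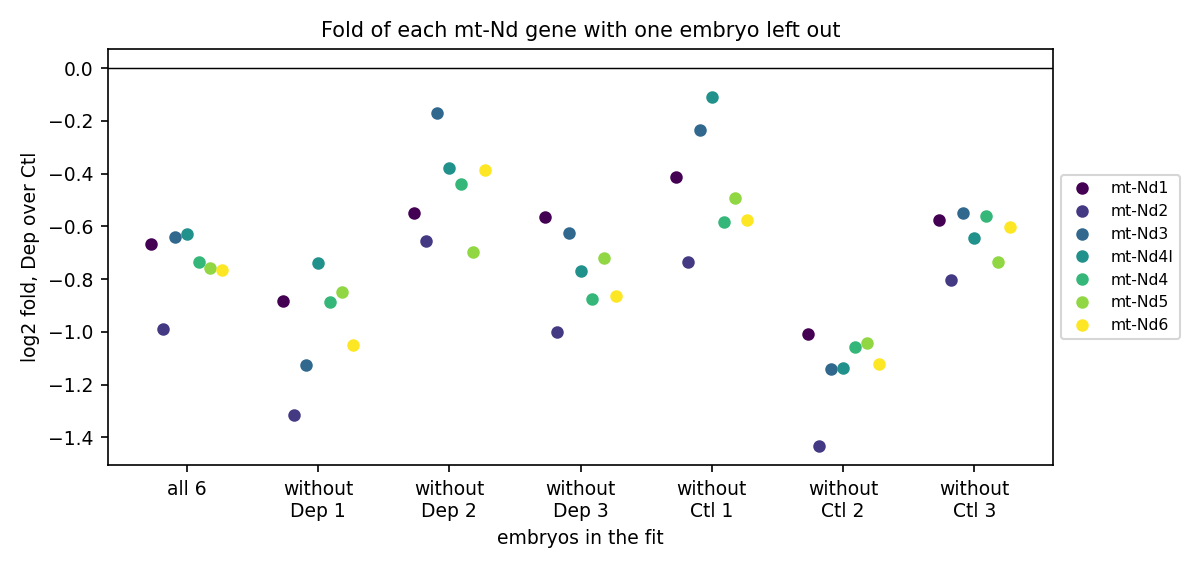
Log2 fold, Dep over Ctl (vertical axis), of each mt-Nd gene with all 6 embryos and with 1 embryo left out (horizontal axis); each point is 1 gene. All points lie below 0, and the values without Ctl 2, from -1.43 to -1.01, are the lowest as a set.

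Levels between genes can be compared only per length, and on that scale the members spanned a wide range. The kit starts on poly(A) tails and the tails of single messengers, mt-Nd6 included, were not measured, so these are levels of captured RNA. Per kilobase, mt-Nd1 had 198144 ± 83699 normalized counts (SD over the 6 embryos). mt-Nd2, mt-Nd4, mt-Nd5 and mt-Nd6 had 53290, 52362, 51809 and 48894 normalized counts per kilobase. mt-Nd1 exceeded mt-Nd2 in 6 of 6 embryos, by 3.10 to 6.03 times. The order among mt-Nd2, mt-Nd4, mt-Nd5 and mt-Nd6 did not hold beyond the spread, each neighbour in it being higher in 3 of 6 embryos. mt-Nd3, at 1102 normalized counts per kilobase, lay below mt-Nd6 by 34.0 to 60.4 times in every embryo. mt-Nd4l was the lowest of the 7 at 327, below mt-Nd3 by 2.44 to 5.58 times in 6 of 6 embryos.

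Both lowest members are those whose sequence is almost wholly shared with the nuclear copy. Among the other 6 protein genes of the mitochondrial genome, mt-Co2, mt-Atp6 and mt-Co3, with 100%, 99.5% and 99.9% of windows shared, had 5369, 7108 and 7371 normalized counts per kilobase. mt-Cytb, with 0% shared, had 186367, and mt-Co1, with 51.1% shared, had 134252. mt-Atp8 goes against this order, with 0% shared and 713 normalized counts per kilobase. mt-Atp8, mt-Nd4l and mt-Nd3, of 204, 297 and 348 bases, are also the shortest of the 13 protein genes, and they are the lowest per kilobase. mt-Nd4, with 62.2% shared, had 52362, near the 48894 of mt-Nd6 with 0% shared. For all genes the windows were searched in annotated transcripts alone, not in the nuclear DNA between them. The part of nuclear matches or of gene length in these levels was not tested. Of 7 pseudogenes of the copy that were looked for, only Gm10222 was among the listed genes. It had 382, 140 and 133 normalized counts in Dep 1, 2 and 3, and 485, 142 and 261 in Ctl 1, 2 and 3, above mt-Nd4l in 6 of 6 embryos. The reads of mt-Nd4l and Gm10222 cannot be told apart by sequence over 294 bases, so the level of each is uncertain.

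**Figure D3:**
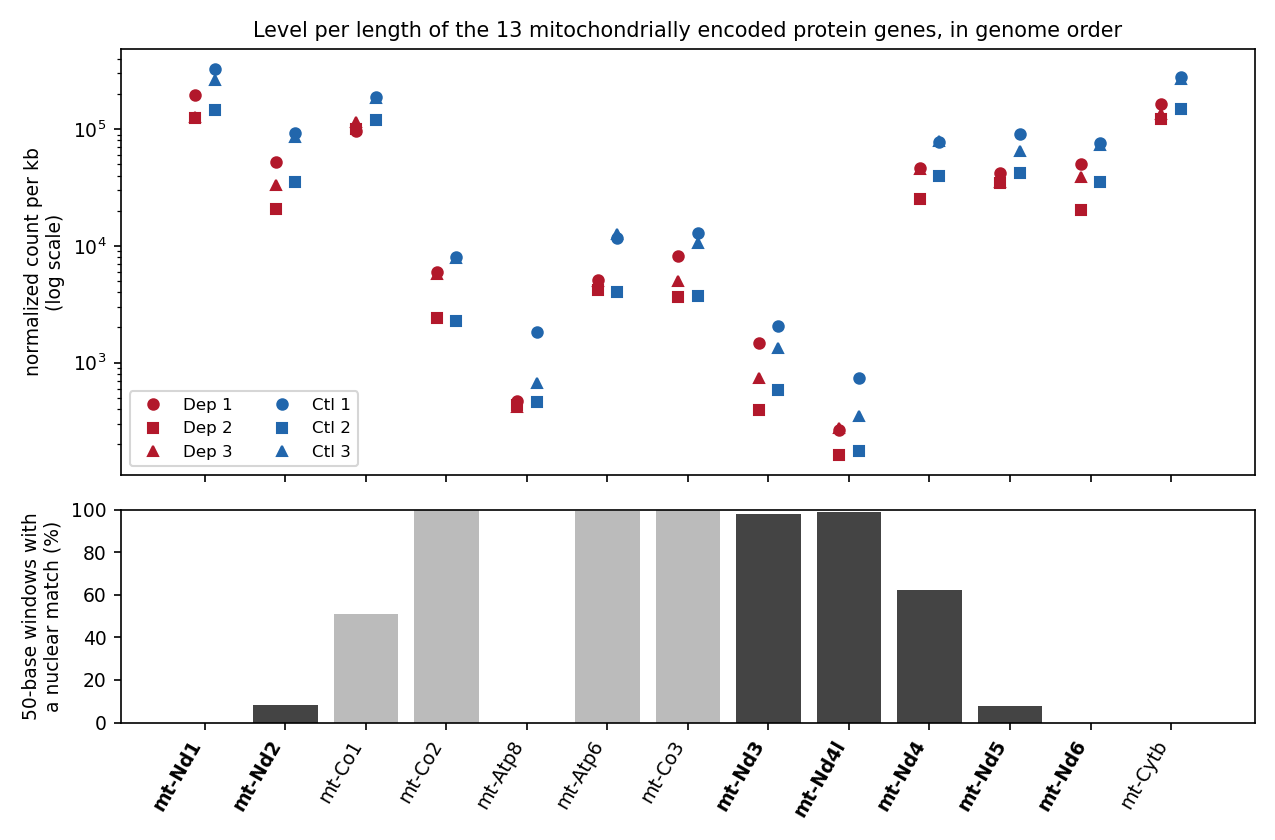
Upper panel: normalized counts per kilobase (log axis) of the 13 mitochondrially encoded protein genes in genome order, each point 1 embryo, Dep to the left of Ctl. Lower panel: percent of 50-base windows found in an annotated nuclear transcript, with mt-Nd genes dark. mt-Nd3 and mt-Nd4l, at 98.0% and 98.8% shared, average 1102 and 327 per kilobase, against 48894 to 198144 for the other mt-Nd genes.

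The division of reads among the 7 genes overlapped between Dep and Ctl for each gene. mt-Nd1 took 46.0%, 48.0% and 40.0% of the mt-Nd reads in Dep 1, 2 and 3, and 43.6%, 42.4% and 41.5% in Ctl 1, 2 and 3. mt-Nd5 took 21.8% ± 3.22 in Dep and 22.0% ± 2.19 in Ctl, and mt-Nd4 16.7% ± 3.53 in Dep and 16.5% ± 1.71 in Ctl (SD, n = 3 each). The share of mt-Nd2 was 13.1%, 8.64% and 11.4% in Dep 1, 2 and 3, and 13.4%, 11.3% and 14.5% in Ctl 1, 2 and 3. The difference for mt-Nd2, Dep minus Ctl, was -2.03 percentage points (two-sided exact permutation test, p = 0.3), the smallest p of the 7. Without 1 embryo it ran from -3.05 without Dep 1 to -0.84 without Dep 2. For mt-Nd1 it was 2.14 points (same exact test, p = 0.5), 4.50 without Dep 3 and 0.474 without Dep 2. mt-Nd6 took 5.73% ± 1.33 in Dep and 5.76% ± 0.430 in Ctl, while mt-Nd3 took 0.0547% to 0.1253% and mt-Nd4l 0.0159% to 0.030% over the 6 embryos. Over the 7 shares the exact p ran from 0.3 to 1. The smallest p that 3 against 3 embryos can give is 0.1, so this test cannot show that the shares are the same.

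**Figure D4:**
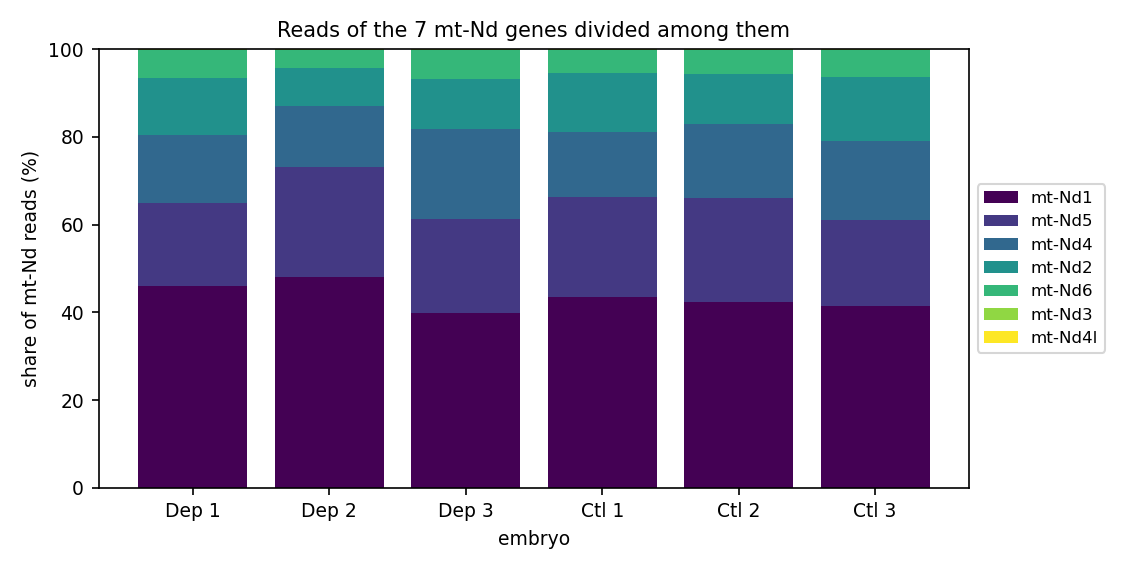
Percent of the reads of the 7 mt-Nd genes that each gene took (stacked bars) in each embryo, Dep to the left of Ctl. mt-Nd1 forms 40.0% to 48.0% of every bar, and mt-Nd3 and mt-Nd4l are too small to see.

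The members' part of all mitochondrial messenger reads overlapped between the groups too. Among the reads of all 13 protein genes of the mitochondrial genome, the 7 took 54.0%, 45.1% and 46.9% in Dep 1, 2 and 3, and 53.3%, 47.3% and 49.8% in Ctl 1, 2 and 3. The other 6 protein genes had negative log2 folds too, from -0.91 for mt-Atp8, a subunit of ATP synthase, to -0.27 for mt-Co2, a subunit of cytochrome oxidase. mt-Co1, another subunit of cytochrome oxidase, was the 1 protein gene of the 13 whose groups did not overlap. It had 148554, 156046 and 179581 normalized counts in Dep 1, 2 and 3, and 290290, 185682 and 284367 in Ctl 1, 2 and 3. The margin between Dep 3 and Ctl 2 was narrow, and 3.8% of all genes were separate with Dep lower. mt-Co1 also differed from the members in its order within Dep, where Dep 1 was its lowest embryo, whereas Dep 1 was the highest Dep embryo for 6 of the 7 members.

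The mitochondrial ribosomal RNAs come from the same heavy-strand transcription as most members. Per kilobase, mt-Rnr2 averaged 4628 and mt-Rnr1 1092 normalized counts over the 6 embryos, below mt-Nd1, mt-Nd2, mt-Nd4, mt-Nd5 and mt-Nd6. The kit starts on poly(A) tails and the tails of these RNAs were not measured, so this does not rank their amounts in the embryo. Windows shared with nuclear transcripts were not counted for the ribosomal RNAs. mt-Rnr2, the large ribosomal RNA, had 10703, 1833 and 4521 normalized counts in Dep 1, 2 and 3, and 10419, 3829 and 12623 in Ctl 1, 2 and 3. Dep 1 thus lay with Ctl 1 and Ctl 3 for mt-Rnr2, and Ctl 2 with Dep 2 and Dep 3. mt-Rnr1, the small ribosomal RNA, had 1566, 261 and 646 normalized counts in Dep 1, 2 and 3, and 1692, 587 and 1507 in Ctl 1, 2 and 3. The log2 folds of mt-Rnr1 and mt-Rnr2 were both -0.83, with standard errors of 0.61, and neither passed (limma adjusted p = 0.9997 for each).

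The nuclear genes of complex I were not lower in Dep as a group with all 6 embryos. Of all 12149 genes, 5861 had a higher mean log2 level in Dep, which is the background for such counts here and in the nuclear lists below. The folds of a list rest on the same 6 embryos, so its genes are not separate observations. Of 7 nuclear core subunits, 7 had a higher mean log2 level in Dep, with log2 folds from 0.10 to 0.43 and a median of 0.18. Of 29 measured accessory subunits, 19 were higher, and the median was 0.06. None of these 36 genes passed the test (limma), none had an unadjusted p under 0.05, and the medians were -0.04 for core and -0.41 for accessory subunits without Dep 1. Ndufv1, the subunit that binds NADH, had 2904 ± 655 normalized counts in Dep and 2160 ± 563 in Ctl. Ndufv2, its iron-sulphur partner, had 5195 ± 2483 in Dep and 4025 ± 920 in Ctl, and Ndufs8, an iron-sulphur subunit near the ubiquinone site, 3136 ± 1152 in Dep and 2533 ± 560 in Ctl. The accessory subunits Ndufa10, Ndufb9 and Ndufb10 had 4719 ± 1583, 4995 ± 1627 and 2158 ± 1205 in Dep, and 3826 ± 926, 4146 ± 806 and 1623 ± 423 in Ctl (SD, n = 3 each for these 6 genes).

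The gap between both genomes can be read within each embryo. The mean log2 level of the 7 mitochondrial genes minus that of the 36 nuclear subunits was 1.86, 1.79 and 2.67 in Dep 1, 2 and 3, and 3.18, 2.30 and 3.32 in Ctl 1, 2 and 3. Dep 3 lay above Ctl 2, so the groups overlapped in this measure as well. In Dep 1 the small gap went with the highest nuclear level of the 6 embryos, a mean log2 of 11.77, and in Dep 2 with the lowest mitochondrial one, 12.62.

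**Figure D5:**
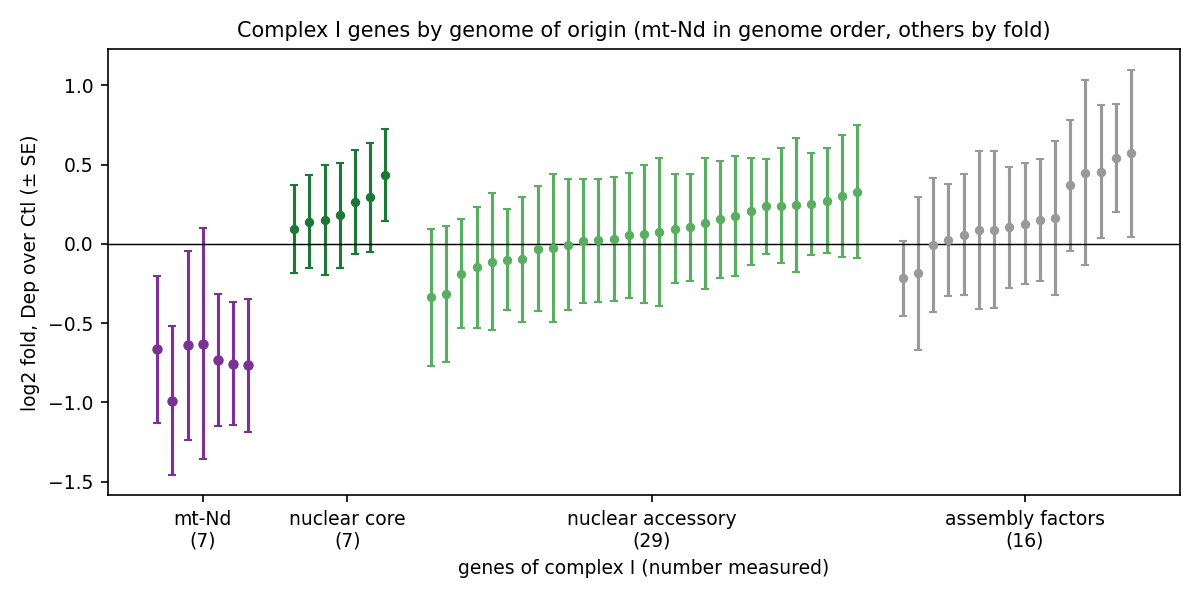
Log2 fold, Dep over Ctl (vertical axis), with its standard error, for the mt-Nd genes, nuclear core and accessory subunits and assembly factors of complex I (horizontal axis, number measured in brackets). The 7 mt-Nd genes lie between -0.99 and -0.63, and the 7 nuclear core subunits between 0.10 and 0.43.

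Assembly factors of complex I gave 13 of 16 measured genes with a higher mean log2 level in Dep, a median of 0.12 on the log2 scale, and 0 passed; without Dep 1 the median was 0.0023. Ecsit, an assembly factor, had 536 ± 73.9 normalized counts in Dep and 367 ± 50.01 in Ctl, and its groups did not overlap. Acad9, another assembly factor, was the 1 with Dep lower and no overlap, at 4414 ± 241 in Dep and 5137 ± 273 in Ctl. It was named after its values were seen. Of all genes, 3.09% were separate with Dep higher, beside the 3.8% with Dep lower. Tmem126b, an assembly factor of the membrane arm, had 573 ± 254 in Dep and 401 ± 107 in Ctl. Ndufaf7, a methyltransferase that modifies a core subunit, had 1160 ± 740 in Dep and 680 ± 224 in Ctl (SD, n = 3 each).

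Nuclear genes that copy mitochondrial DNA or make RNA from it went both ways, 9 of 16 being higher in Dep, their median being 0.08, and 0 passed the test. Top1mt, the mitochondrial topoisomerase, had 6.07, 214 and 82.6 normalized counts in Dep 1, 2 and 3, and 279, 194 and 165 in Ctl 1, 2 and 3. Twnk, the helicase of mitochondrial DNA replication, had 351 ± 100 in Dep and 519 ± 63.8 in Ctl. Tefm, the elongation factor of mitochondrial transcription, had 1142 ± 513 in Dep and 684 ± 113 in Ctl. Of 18 measured genes for processing or stability of mitochondrial RNA, 12 were higher in Dep (median 0.13, and 0.01 without Dep 1) and 0 passed. Fastkd3, of a family of RNA-binding proteins of mitochondria, had 909 ± 196 in Dep and 628 ± 10.9 in Ctl, and Trmt10c, a subunit of mitochondrial RNase P, 832 ± 196 in Dep and 602 ± 95.2 in Ctl. Grsf1, an RNA-binding protein of mitochondrial RNA granules, had 2822 ± 125 in Dep and 3650 ± 592 in Ctl (SD, n = 3 each for these genes). The groups did not overlap for 1 of the 16 genes, Twnk (Dep lower), and for 2 of the 18, Fastkd3 (Dep higher) and Grsf1 (Dep lower). Of all genes, 3.8% were separate with Dep lower and 3.09% with Dep higher, so such counts are near the background. The named genes were those of smallest p in their lists, and none had an unadjusted limma p under 0.05.

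Among 9460 genes outside the mitochondrial genome with a symbol and a mean of at least 100 normalized counts, the 5 whose log2 levels followed the mean log2 level of the members most closely were Usp53, Dhx9, Resf1, Farp1 and Stk3. Their Pearson correlations over the 6 embryos were 0.984, 0.977, 0.975, 0.974 and 0.971. With 6 points and so many genes such values are common: 90 genes reached 0.9 or more and 98 reached -0.9 or less. Usp53, of the ubiquitin-specific protease family, had 805, 411 and 587 normalized counts in Dep 1, 2 and 3, and 1052, 569 and 996 in Ctl 1, 2 and 3. Within the mitochondrial genome, mt-Co3 (0.964) and mt-Cytb (0.956) followed the members most closely, and mt-Co1 (0.812) least of the 6 other protein genes.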

How the data were processed

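Each embryo was lysed whole, its RNA was copied with a SMART-Seq v4 kit, and Illumina library protocols followed, per the labels' protocols. HISAT2, Cufflinks 2.2.1 and the mm10 build appear, per the submitters' processing notes, with no roles, and no counting program is named in them. Each deposited value per gene and library is a signal that by its values is a read count divided by 1 size factor. The file also gives the authors' log2 fold, its standard error and statistic (scores), p-values and adjusted p-values. Low values were whole multiples of 1 step per library, which gave whole reads for 100% of values within 0.01. The lowest mean in the deposited table is 14.2, so low genes are absent. Reads carry no molecular identifiers.

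Identifiers were matched to GENCODE M21 on GRCm38 (11829 of 12149 matched). The design allowed for either counts or normalized values. As the values are normalized, limma 3.58.1 with a trend was used on log2(normalized count + 1), all genes, threshold 0.05. It was tested on simulated data. The recovered reads were also fitted with edgeR 4.0.16 and with DESeq2 1.42.0 (R 4.3.3, Python 3.11.15). Shares among the members were compared by two-sided exact permutation tests. Same-numbered embryos' deviations from group means correlated across genes with r = 0.133, 0.151 and 0.129, each over 0.1, and this check, not a label, is why the replicate number was also used as a block. Libraries were not duplicates by a chi-square test.

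The members and gene lists were chosen with earlier results of these data known. Named genes were the members, the other mitochondrially encoded protein genes and ribosomal RNAs, the 3 genes of smallest p per nuclear list, any listed pseudogene and the 5 genes of most similar pattern.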

Additional observations from a re-analysis of the deposited data

How the results depend on the processing

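Under 17 alternatives (2 pseudocounts, a minimum mean of 100, no trend, 3 scalings, library weights, edgeR, DESeq2, the replicate block and 6 fits without 1 embryo), the 118 log2 folds of the members were all below 0, and none passed an adjusted p of 0.05. mt-Nd4l has no value at the minimum mean. The median of the members ran from -0.88 to -0.66 outside the fits without 1 embryo, and from -1.12 to -0.44 in them. Quantile normalization gives all libraries the same values at the same rank, so its folds reflect changes of rank only. Under it mt-Nd1 moved to -0.01, and the part of its rank in this was not tested. The count of genes called was 0 except with DESeq2, where it was 1. At the unadjusted threshold it ran from 172 to 420 (420 with the replicate block), and from 122 to 576 without 1 embryo. The replicate block changed no adjusted call.

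The mt-Nd share of all reads, Dep minus Ctl, was -1.26 percentage points, and -1.85 to -0.90 without 1 embryo. It was -1.40 relative to reads outside the mitochondrial genome. As a share of the 13 genes the difference was -1.47 points, on another scale: 48.7% ± 4.70 in Dep and 50.1% ± 2.99 in Ctl (SD). That difference is small beside its level and spread, whereas the share of all reads was 1.74% in Dep and 2.99% in Ctl. Differences in shares among the 7 changed sign for 5 genes. That of mt-Nd4 was 0.171 points, -0.144 over the 13 genes and -0.000433 as a log2 share, and that of mt-Nd4l 0.000832 and, over the 13 genes, -9.65e-05. Without 1 embryo the difference ran from 0.474 to 4.50 for mt-Nd1, -3.05 to -0.84 for mt-Nd2, -0.0101 to 0.0252 for mt-Nd3, -1.80 to 1.58 for mt-Nd4, -0.00181 to 0.00536 for mt-Nd4l, -1.98 to 1.21 for mt-Nd5 and -0.481 to 0.736 for mt-Nd6. With 3 embryos a group, the 95% intervals of the members' log2 folds are wide, that of mt-Nd4l running from -2.24 to 0.98.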

Other observations

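Of the 22 tRNA genes of the mitochondrial genome, 7 were among the listed genes, at 32.3 to 88.0 normalized counts on average, and all 7 had a negative log2 fold, from -1.87 to -0.39. The 3 with the largest folds are given in full, and the other 4, mt-Tc, mt-Tn, mt-Tp and mt-Ta, had -0.67, -0.53, -0.45 and -0.39. For mt-Ta, Dep 3 was the highest of the 6 embryos, at 58.1 normalized counts. mt-Tm, the methionine tRNA directly before mt-Nd2, had 19.4, 31.8 and 31.2 normalized counts in Dep 1, 2 and 3, and 168, 72.6 and 83.8 in Ctl 1, 2 and 3. Its groups did not overlap, and its log2 fold was -1.87 ± 0.79 (SE; limma unadjusted p = 0.0391, adjusted p = 0.9997). mt-Te, the glutamate tRNA beside mt-Nd6 on the same strand, had 26.7, 14.9 and 27.0 in Dep 1, 2 and 3, and 110, 93.5 and 38.0 in Ctl 1, 2 and 3, again without overlap. mt-Tw, the tryptophan tRNA that follows mt-Nd2, had 7.28, 8.94 and 63.2 in Dep 1, 2 and 3, and 72.2, 41.7 and 75.9 in Ctl 1, 2 and 3. These genes were picked after their values were seen, and 3.8% of all genes were separate with Dep lower. Reads over the tRNA genes can come from longer RNAs that also hold neighbouring genes, and the kit starts on poly(A) tails. The values are therefore no levels of mature tRNAs, and the source of these reads was not tested.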
